A study of Homo sapiens with 16 samples.

Results

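Androgen-induced genes of prostate epithelium outside the kallikreins, chaperones and lipid-synthesis enzymes were followed in LNCaP cells, a line of human prostate cancer cells that grows with androgen. The set was a list of 45 gene symbols known for a response to androgen, each found once among the 20531 entries of the estimated count table, and the rule that chose them used no measured value, although earlier results of these data were known when the list was drawn up. The cells had been transfected for 24 h with 40 nM of siRNA, a custom nonsense control (NS) or a pool against SLIRP, an RNA-binding protein that acts as a transcriptional coregulator, and were then kept for another 24 h in serum-free medium with the ethanol vehicle (Veh) or 1 nM dihydrotestosterone (DHT). This gave 4 groups of 4 libraries, 16 in all: NS-Veh and NS-1nM DHT with the control siRNA, SLIRP-Veh and SLIRP-1nM DHT after knockdown. Every group was transfected and serum-free, no untransfected cells were analysed here, and the cells are 1 line under 1 pool of siRNA, so that an effect of the pool other than the loss of SLIRP cannot be told apart from it. The study asked how the loss of SLIRP alters the response to a low dose of androgen.

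DHT, the strongest natural androgen in the prostate, changes transcription from enhancers and promoters, often at sites that the forkhead factor FOXA1 also occupies, and coactivators and corepressors there set how strongly the nearby gene is transcribed. In the luminal cells of the prostate this programme supplies a secretory epithelium: enzymes that make sugars and lipids for secretion, transporters, the vesicle machinery, and kinases and scaffolds that carry signals. The genes are described below in groups by role: metabolism and transport (12 genes), signalling (13), transcription and protein modification (8), the secretory pathway and vesicles (6) and the cytoskeleton (6).

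Library totals ran from 436353 to 1689708 estimated counts, and the 45 genes took 0.625% to 0.907% of them. SLIRP itself, listed under its older symbol C14orf156, stood at 57.8 to 63.4 CPM in NS-Veh and 45.1 to 61.4 in NS-1nM DHT, against 1.75 to 7.83 in SLIRP-Veh and 1.41 to 8.04 in SLIRP-1nM DHT. CPM, TMM-scaled counts relative to the library total, do not allow for gene length, so levels are compared between groups and never between genes. The luminal markers KLK3, KLK2, FOXA1, HOXB13, CDH1, EPCAM, KRT8 and KRT18 were present in every group. Their summed level was 2787 to 2942 CPM in NS-Veh, 2817 to 3189 in NS-1nM DHT, 2372 to 2543 in SLIRP-Veh and 2559.9 to 2632 in SLIRP-1nM DHT. KLK2 alone was at 1.32 to 4.01 CPM in NS-Veh, where 3 counts stood at 1.97 to 6.88 CPM. The basal markers KRT5 and TP63 were at 0 in all 16 libraries, and all 4 basal markers together reached at most 1.57 CPM. Of the 6 leukocyte and endothelial markers PTPRC, CD3E and PECAM1 were at 0 throughout. VWF ran from 2.37 to 17.4 CPM, while CD68 reached at most 7.83 CPM and LYZ 2.91 CPM. The 4 neuroendocrine markers summed to 18.0 to 38.6 CPM and the 5 stromal markers to 11.3 to 34.0 CPM. Of the 45 genes, HPGD, KRT19 and STEAP4 were too low to test. KRT19, a simple-epithelial keratin, had 1 count in the whole series; STEAP4, a metalloreductase, had 0 to 2 counts in each library; and HPGD, which breaks down prostaglandins, had 0 to 3. Because the RNA came from whole cultures, fewer cells of a kind and less RNA per cell cannot be told apart.

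DHT raised 10 of the 42 genes tested with NS siRNA and lowered none. In the edgeR quasi-likelihood test with Benjamini-Hochberg adjustment over 10684 genes at an FDR of 0.01, 0.777% of all genes tested were higher and 0.309% lower, against 23.8% and 0% of these. LIFR was the one gene lower at an unadjusted edgeR p under 0.05, with each siRNA, and DESeq2 also called none lower. With SLIRP siRNA DHT also raised 10 and lowered none, against 0.636% higher and 0.534% lower over all genes. The 10 with NS siRNA were SLC45A3, AZGP1, FAM174B, HERC3, STK39, HOMER2, SORD, UAP1, PPAP2A and ABHD2, and 8 of them passed with SLIRP siRNA too. AZGP1 and HOMER2 passed with NS siRNA alone, and DBI and LMAN1 with SLIRP siRNA alone. With replicates 1 and 2 against 3 and 4 as a block, DBI and TPD52 also passed with NS siRNA and ELL2 with SLIRP siRNA. The median log2 fold change of the 42 genes was 0.21 with NS siRNA and 0.25 with SLIRP siRNA, beside 0.0085 and -0.0011 over all genes tested, and 34 and 31 of the 42 had a positive value. The count of 10 with NS siRNA rested on single libraries: it was 5 without NS-Veh replicate 1, 5 without NS-Veh replicate 3, 4 without NS-Veh replicate 4, and 5 without NS-1nM DHT replicate 1 or 2, and the count with SLIRP siRNA was 6 without SLIRP-Veh replicate 1. HERC3, SLC45A3 and SORD passed with both siRNAs whichever of the 16 libraries was left out, as did ABHD2 and FAM174B with SLIRP siRNA. Over all genes the balance with SLIRP siRNA turned with the scaling, from 68 higher and 57 lower to 52 higher and 74 lower under upper-quartile scaling, whereas the 42 genes then gave 9 higher and 0 lower.

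**Figure D1:**
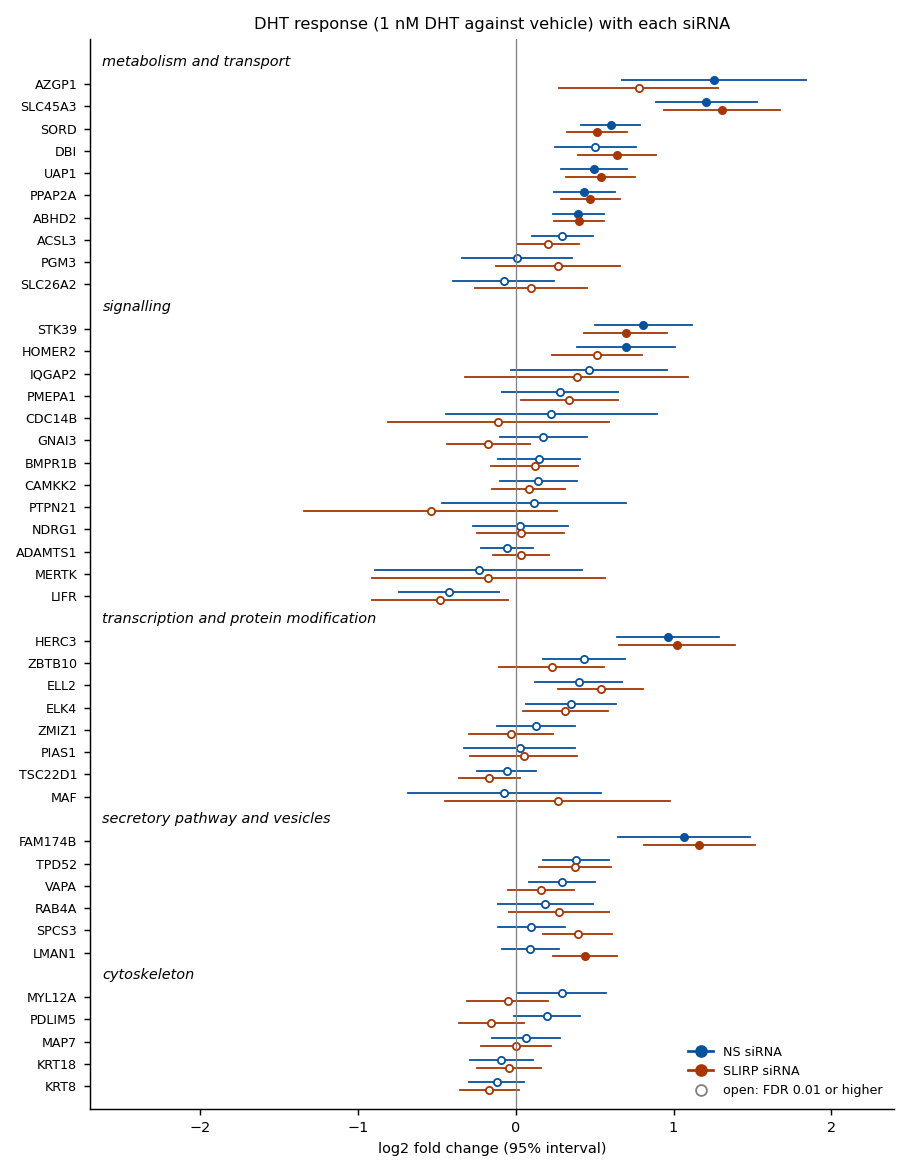
Log2 fold change of 1 nM DHT against vehicle (x axis, with 95% intervals) for the 42 genes tested, grouped by role, with NS siRNA in blue and SLIRP siRNA in brown; filled points passed FDR 0.01. The filled points all lie to the right of 0, 10 for each siRNA, and most are in the metabolism and transport group.

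Genes of metabolism and transport made up 6 of the 10 that DHT raised with NS siRNA and 6 of the 10 with SLIRP siRNA. SLC45A3, prostein, is a membrane transporter of the sugar-carrier type made almost only in prostate and lies at chr1:205626979-205649637 on hg19. SLC45A3 stood at 64.04, 48.7, 52.2 and 41.8 CPM in the 4 NS-Veh libraries (51.7 ± 9.32, mean ± SD) and at 138, 133, 103 and 92.9 CPM in NS-1nM DHT (117 ± 22.5). With SLIRP siRNA SLC45A3 stood at 23.7, 34.4, 33.6 and 39.4 CPM in vehicle (32.8 ± 6.602) and at 63.9, 76.2, 78.7 and 90.9 CPM in DHT (77.4 ± 11.1). All 4 DHT libraries were above all 4 vehicle libraries with either siRNA. The fold was 2.31 with NS siRNA (log2 1.21 ± 0.16, SE; edgeR FDR 3.17e-06) and 2.47 with SLIRP siRNA (log2 1.31 ± 0.18; edgeR FDR 1.14e-05).

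SORD, sorbitol dehydrogenase (chr15:45315345-45369383), turns sorbitol into fructose, a sugar of seminal fluid. SORD was at 538, 556, 508 and 482 CPM in the 4 NS-Veh libraries (521 ± 32.9, mean ± SD) and at 946, 863, 696 and 641 CPM in NS-1nM DHT (786 ± 142). With SLIRP siRNA SORD stood at 415, 434, 463 and 440.0 CPM in vehicle (438 ± 19.8) and at 679, 643, 605 and 576 CPM in DHT (626 ± 45.1). Its DHT libraries lay above the vehicle libraries with both siRNAs, and the log2 fold changes were 0.60 ± 0.09 (edgeR FDR 4.22e-05) and 0.51 ± 0.09 (edgeR FDR 6.39e-04). Reads of SORD are uncertain because a near-identical pseudogene, SORD2P, can share them. UAP1 (chr1:162531512-162571030) makes UDP-N-acetylglucosamine, the sugar donor of glycoproteins. UAP1 was at 120.1, 146, 157 and 126 CPM in the 4 NS-Veh libraries (137 ± 17.03, mean ± SD) and at 209.7, 202, 186 and 185 CPM in NS-1nM DHT (196 ± 12.1). With SLIRP siRNA UAP1 stood at 107, 113, 112 and 127 CPM in vehicle (115 ± 8.64) and at 159, 155, 190.3 and 158 CPM in DHT (166 ± 16.5). No DHT library of UAP1 was as low as a vehicle library of the same siRNA, and the log2 fold changes were 0.49 ± 0.10 (edgeR FDR 0.00384) and 0.54 ± 0.11 (edgeR FDR 0.00225). PGM3, the enzyme before UAP1 in the same pathway, did not pass, at 0.01 ± 0.17 and 0.27 ± 0.19.

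Among the lipid-handling genes of the group ABHD2 and PPAP2A rose with both siRNAs and DBI with SLIRP siRNA. ABHD2, a hydrolase of the alpha/beta fold (chr15:89630690-89745586), was the member with the most counts, 1128 a library on average. It stood at 821, 793, 792 and 799 CPM in the 4 NS-Veh libraries (801 ± 13.3, mean ± SD) and at 1208, 1089, 979.8 and 945 CPM in NS-1nM DHT (1055 ± 119). With SLIRP siRNA ABHD2 stood at 1054, 972, 1187 and 1178 CPM in vehicle (1098 ± 103) and at 1272, 1495, 1465 and 1573 CPM in DHT (1451 ± 128). DHT libraries and vehicle libraries did not overlap, and the fold was 1.32 with NS siRNA (edgeR FDR 0.00282) and 1.32 with SLIRP siRNA (edgeR FDR 0.00146). PPAP2A, now PLPP1, removes phosphate from lipid phosphates (chr5:54720682-54830797). PPAP2A was at 268, 280.5, 242 and 226 CPM in the 4 NS-Veh libraries (254 ± 24.6, mean ± SD) and at 350.2, 358, 301 and 338 CPM in NS-1nM DHT (337 ± 25.03). With SLIRP siRNA PPAP2A stood at 259.8, 324, 248 and 286 CPM in vehicle (279 ± 33.8) and at 412, 420.2, 386 and 332 CPM in DHT (388 ± 39.8). Its groups were apart as well, the closest libraries being 280.5 against 301 CPM with NS siRNA and 324 against 332 CPM with SLIRP siRNA, and the log2 fold changes were 0.43 ± 0.10 (edgeR FDR 0.00644) and 0.47 ± 0.09 (edgeR FDR 0.00178). DBI, the acyl-CoA-binding protein, was 229 ± 22.3 and 324 ± 59.1 CPM with NS siRNA and 278 ± 53.5 and 431 ± 79.04 CPM with SLIRP siRNA. Its log2 fold change was 0.50 ± 0.13 (edgeR FDR 0.0214) and 0.64 ± 0.12 (edgeR FDR 0.00105). DBI passed with NS siRNA too without a filter on low counts and with the compared groups fitted alone, and its call with SLIRP siRNA was lost in limma and without SLIRP-Veh replicate 1. ACSL3, which activates long-chain fatty acids, stood at 0.29 ± 0.10 (edgeR FDR 0.111) and 0.21 ± 0.10 (edgeR FDR 0.293), and the sulfate transporter SLC26A2 at -0.08 ± 0.16 and 0.10 ± 0.18; neither passed.

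AZGP1, a secreted zinc-binding glycoprotein that mobilises lipid, had the largest log2 fold change with NS siRNA but only 24.6 counts a library on average, and is singled out here after its values were seen. It was at 16.01, 2.32, 10.6 and 14.5 CPM in the 4 NS-Veh libraries (10.8 ± 6.12, mean ± SD) and at 29.4, 39.3, 21.8 and 21.2 CPM in NS-1nM DHT (27.9 ± 8.47). With SLIRP siRNA AZGP1 stood at 25.5, 17.2, 18.8 and 16.7 CPM in vehicle (19.5 ± 4.05) and at 48.3, 35.3, 30.1 and 29.8 CPM in DHT (35.8 ± 8.65). The DHT libraries lay above the vehicle libraries with both siRNAs, and the log2 fold change was 1.26 ± 0.29 with NS siRNA (edgeR FDR 0.00951) and 0.78 ± 0.25 with SLIRP siRNA (edgeR FDR 0.0776). The call with NS siRNA was lost in 11 of the 16 fits that left out 1 library. It was also lost in 7 other refits, upper-quartile and RLE scaling among them, while DESeq2 gave it no adjusted p.

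Among the 13 signalling genes DHT raised a kinase and a scaffold. STK39, a kinase that acts on ion cotransporters (chr2:168810530-169104105), passed with both siRNAs. STK39 stood at 52.04, 74.2, 42.9 and 50.6 CPM in the 4 NS-Veh libraries (54.9 ± 13.4, mean ± SD) and at 105, 97.9, 81.9 and 77.5 CPM in NS-1nM DHT (90.5 ± 12.97). With SLIRP siRNA STK39 stood at 79.9, 78.3, 82.1 and 91.2 CPM in vehicle (82.9 ± 5.75) and at 136, 118, 160.2 and 123 CPM in DHT (134 ± 18.7). The DHT libraries did not overlap the vehicle libraries, and the fold was 1.75 with NS siRNA (log2 0.81 ± 0.15; edgeR FDR 9.10e-04) and 1.62 with SLIRP siRNA (log2 0.70 ± 0.13; edgeR FDR 9.42e-04). HOMER2 (chr15:83505698-83654905), a scaffold that ties receptors to calcium stores, passed with NS siRNA. HOMER2 stood at 48.03, 62.6, 66.7 and 47.4 CPM in the 4 NS-Veh libraries (56.2 ± 9.93, mean ± SD) and at 104, 97.2, 78.4 and 90.7 CPM in NS-1nM DHT (92.5 ± 10.8). With SLIRP siRNA HOMER2 stood at 75.2, 106, 91.5 and 67.5 CPM in vehicle (85.2 ± 17.4) and at 108, 145, 102 and 118 CPM in DHT (118 ± 19.1). With NS siRNA the groups were apart and the log2 fold change was 0.70 ± 0.15 (edgeR FDR 0.00631), whereas with SLIRP siRNA 1 vehicle library at 106 CPM was above 1 DHT library at 102 CPM and the value was 0.51 ± 0.14 (edgeR FDR 0.0332). The difference between these log2 fold changes was -0.18 ± 0.21 (95% interval -0.61 to 0.24) and did not pass.

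The other 11 signalling genes passed in neither DHT comparison. The calcium-dependent kinase CAMKK2 was 120.4 ± 18.1 and 137 ± 20.8 CPM with NS siRNA, a log2 fold change of 0.14 ± 0.12 (95% interval -0.10 to 0.39). PMEPA1, an inhibitor of TGF-beta signalling, was at 0.28 ± 0.18 and 0.34 ± 0.15, and NDRG1, a stress-response gene, at 0.03 ± 0.15 and 0.03 ± 0.14. LIFR, the receptor for leukemia inhibitory factor, had negative values with both siRNAs, -0.42 ± 0.16 (edgeR FDR 0.181) and -0.48 ± 0.21 (edgeR FDR 0.258). The remaining genes were the metalloproteinase ADAMTS1 (-0.06 and 0.03), the BMP receptor BMPR1B (0.14 and 0.12), the phosphatases CDC14B (0.23 and -0.11) and PTPN21 (0.12 and -0.54), the G-protein subunit GNAI3 (0.18 and -0.17), the scaffold IQGAP2 (0.46 and 0.39) and the receptor kinase MERTK (-0.24 and -0.17), given as log2 fold changes with NS and SLIRP siRNA.

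Of the 8 genes of transcription and protein modification, HERC3, a ubiquitin ligase of the HECT family (chr4:89513585-89629692), rose with DHT. HERC3 stood at 162, 137, 113 and 87.5 CPM in the 4 NS-Veh libraries (125 ± 31.96, mean ± SD) and at 303, 271, 174 and 175 CPM in NS-1nM DHT (231 ± 66.0). With SLIRP siRNA HERC3 stood at 78.1, 68.9, 63.2 and 70.1 CPM in vehicle (70.1 ± 6.14) and at 183, 168, 122 and 119 CPM in DHT (148 ± 32.1). Its DHT libraries were above all vehicle libraries of the same siRNA, and replicates 1 and 2 of both DHT groups were above replicates 3 and 4. The same order was seen for SORD, DBI, ACSL3, ADAMTS1, AZGP1, ELL2, KRT8, PMEPA1, PPAP2A, ZBTB10 and ZMIZ1. For CAMKK2, GNAI3 and PDLIM5 replicates 1 and 2 were below replicates 3 and 4 in both DHT groups. Fitted apart, the log2 fold change of HERC3 with NS siRNA was 0.92 in replicates 1 and 2 and 0.78 in replicates 3 and 4. The value from all libraries, given next, lies above both. Totals in NS-Veh were 512925 and 436353 counts in replicates 1 and 2 and 1521674 and 1250287 in replicates 3 and 4. Whether this difference in depth raised the value was not tested. The fold was 1.95 with NS siRNA (log2 0.97 ± 0.16; edgeR FDR 2.00e-04) and 2.03 with SLIRP siRNA (log2 1.02 ± 0.18; edgeR FDR 5.47e-04). ELL2, an elongation factor of RNA polymerase II, had DHT libraries above its vehicle libraries with both siRNAs, 61.3 ± 7.22 against 84.0 ± 11.5 CPM and 64.4 ± 8.93 against 96.2 ± 7.47 CPM, and missed the threshold (edgeR FDR 0.138 and 0.0173). ELK4, an ETS factor, was at 0.35 ± 0.14 and 0.31 ± 0.13, and the zinc finger gene ZBTB10 at 0.43 ± 0.13 and 0.23 ± 0.17, without passing. The SUMO ligase PIAS1, its relative ZMIZ1, the leucine zipper gene TSC22D1 and the factor MAF had log2 fold changes from -0.17 to 0.27 over both siRNAs, and none passed.

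Genes of the secretory pathway had positive DHT values throughout, 6 of 6 with each siRNA. In metabolism and transport 9 of 10 were positive with NS siRNA and 10 of 10 with SLIRP siRNA. Over all 10684 genes tested 5503 and 5322 were positive. Of the secretory genes FAM174B passed with both siRNAs and LMAN1 with SLIRP siRNA. FAM174B (chr15:93160678-93353114) encodes a small membrane protein. It stood at 26.02, 23.2, 21.8 and 20.9 CPM in the 4 NS-Veh libraries (22.97 ± 2.24, mean ± SD) and at 55.6, 53.2, 47.03 and 33.6 CPM in NS-1nM DHT (47.4 ± 9.83). With SLIRP siRNA FAM174B stood at 34.3, 32.9, 39.02 and 33.3 CPM in vehicle (34.9 ± 2.82) and at 59.99, 78.97, 67.0 and 101 CPM in DHT (76.6 ± 17.8). The groups were apart with both siRNAs, and the fold was 2.09 (log2 1.07 ± 0.21; edgeR FDR 0.00150) and 2.24 (log2 1.16 ± 0.17; edgeR FDR 4.20e-05). LMAN1 (chr18:56995055-57026497) is the cargo receptor that carries glycoproteins from the endoplasmic reticulum to the Golgi. LMAN1 stood at 406, 433, 361 and 381 CPM in the 4 NS-Veh libraries (395 ± 31.5, mean ± SD) and at 423, 440.3, 407 and 394 CPM in NS-1nM DHT (416 ± 19.998). With SLIRP siRNA LMAN1 stood at 166, 136, 192 and 203 CPM in vehicle (175 ± 29.9) and at 224, 252, 253 and 226 CPM in DHT (239 ± 16.1). DHT and vehicle libraries overlapped with NS siRNA and not with SLIRP siRNA, at log2 fold changes of 0.09 ± 0.09 (edgeR FDR 0.755) and 0.44 ± 0.10 (edgeR FDR 0.00859). This call was lost under upper-quartile scaling, in limma on the authors' normalized score, with the compared groups fitted alone, and without NS-Veh replicate 3 or 4, SLIRP-Veh replicate 1 or 2 or SLIRP-1nM DHT replicate 2 or 3.

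SPCS3, a subunit of the signal peptidase (chr4:177241117-177253396), passed with neither siRNA. SPCS3 stood at 228, 236, 189.6 and 184 CPM in the 4 NS-Veh libraries (209.5 ± 26.6, mean ± SD) and at 246, 217, 207 and 203 CPM in NS-1nM DHT (219 ± 19.5). With SLIRP siRNA SPCS3 stood at 177, 124, 169.5 and 146 CPM in vehicle (154 ± 24.1) and at 205, 189, 218 and 208 CPM in DHT (205 ± 11.9). Its DHT libraries were clear of the vehicle libraries with SLIRP siRNA alone, and the values of 0.10 ± 0.10 and 0.39 ± 0.11 did not pass (edgeR FDR 0.781 and 0.0339). TPD52, a vesicle-traffic protein, was 234 ± 21.5 against 307 ± 13.8 CPM with NS siRNA and 156.3 ± 21.7 against 203 ± 37.1 CPM with SLIRP siRNA, at 0.38 ± 0.10 (edgeR FDR 0.0342) and 0.38 ± 0.11 (edgeR FDR 0.0548). The endosomal GTPase RAB4A and the membrane-contact protein VAPA ranged from 0.16 to 0.29.

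None of the 5 cytoskeleton genes tested passed with either siRNA in edgeR or DESeq2, and 1 of them, MYL12A with NS siRNA, was at an unadjusted edgeR p under 0.05. The luminal keratins KRT8 and KRT18 had small negative values, -0.12 ± 0.09 and -0.17 ± 0.09 for KRT8 and -0.09 ± 0.10 and -0.04 ± 0.10 for KRT18. The microtubule protein MAP7 was at 0.07 ± 0.11 and 0.00 ± 0.11. MYL12A, a myosin light chain, and PDLIM5, an actin-linked PDZ and LIM protein, were positive with NS siRNA (0.29 ± 0.14 and 0.20 ± 0.10) and negative with SLIRP siRNA (-0.05 ± 0.13 and -0.15 ± 0.10).

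**Figure D2:**
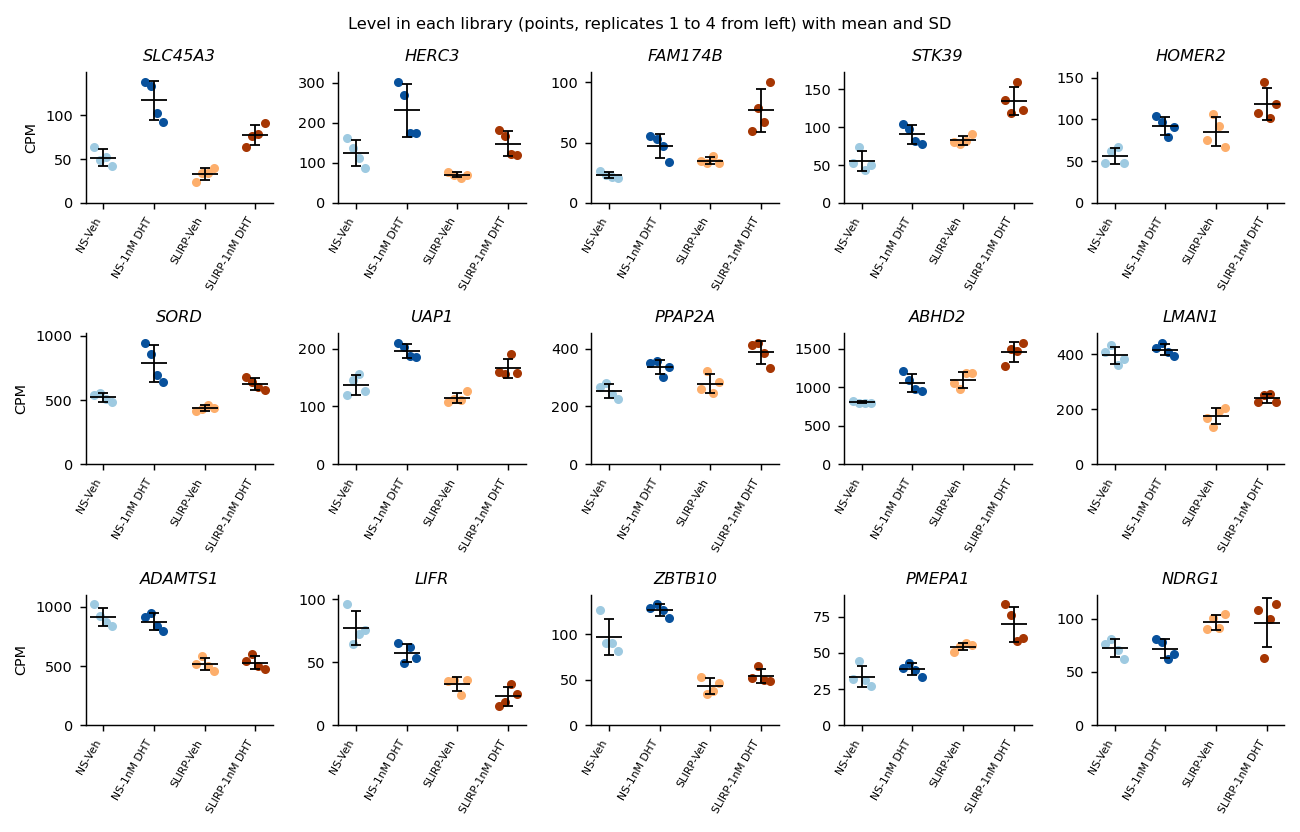
Level in CPM (y axis, linear from 0) of 15 genes in each of the 16 libraries, with points for the libraries, a horizontal mark for the mean and bars for the SD of the 4 libraries of a group. In the SLC45A3 and HERC3 panels the blue groups (NS siRNA) have the higher means, in the FAM174B, STK39, HOMER2 and ABHD2 panels the orange groups (SLIRP siRNA) have them, and the step from vehicle to DHT is seen with both siRNAs.

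The promoters of the 3 genes with the lowest FDR for DHT with NS siRNA among those with an entry in the RefSeq promoter table are shown so that their start regions can be read beside the response. They hold 250 bases before and 50 after the start, on GRCh38.p14, 5′ to 3′ on the gene's strand: SLC45A3 at chr1:205680460-205680759 (minus strand), HERC3 at chr4:88523593-88523892 (plus strand) and STK39 at chr2:168247546-168247845 (minus strand). Capitals mark the hormone-response half-site AGAACA.
SLC45A3: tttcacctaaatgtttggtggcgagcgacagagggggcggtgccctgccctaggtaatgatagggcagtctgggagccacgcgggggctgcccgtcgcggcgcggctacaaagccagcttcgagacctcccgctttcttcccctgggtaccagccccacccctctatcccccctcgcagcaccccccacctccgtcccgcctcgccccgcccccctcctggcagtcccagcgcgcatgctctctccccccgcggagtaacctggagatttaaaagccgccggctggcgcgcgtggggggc
HERC3: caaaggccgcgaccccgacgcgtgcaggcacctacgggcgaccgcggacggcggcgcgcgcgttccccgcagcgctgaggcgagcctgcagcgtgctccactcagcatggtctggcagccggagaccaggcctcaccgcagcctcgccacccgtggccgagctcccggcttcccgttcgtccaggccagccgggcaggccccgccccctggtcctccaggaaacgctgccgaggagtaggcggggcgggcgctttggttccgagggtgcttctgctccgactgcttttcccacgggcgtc
STK39: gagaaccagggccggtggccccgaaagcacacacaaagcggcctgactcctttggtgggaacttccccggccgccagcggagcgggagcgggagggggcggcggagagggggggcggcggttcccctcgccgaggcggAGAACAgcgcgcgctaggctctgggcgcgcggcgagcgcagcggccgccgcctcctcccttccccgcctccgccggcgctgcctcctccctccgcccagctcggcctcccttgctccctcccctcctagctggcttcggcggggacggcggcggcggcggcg
The GC content of these promoters was 69.0%, 73.3% and 77.3%. SLC45A3 and HERC3 held no half-site in the window on either strand, and STK39 held 1, at positions -112 to -107 from the start. Of the 45 genes 35 had an entry, and the half-site, searched on both strands, was in 2 of these (5.71%), STK39 and PMEPA1, against 4056 of 27305 promoters in the table (14.9%). The forkhead word TGTTTAC was in 0 of the 35 and in 3.41% of all promoters, and the inverted repeat of the half-site with 3 bases between was in 0 of the 35 and in 1 promoter of the table. These are matches of letters in a window at the RefSeq start, and enhancers were not searched. Those starts were not matched to the hg19 gene positions given above, which come from GENCODE. The window of a gene, HERC3 included, may therefore belong to another start than the position given for it.

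After SLIRP knockdown genes of the set went both ways, and more were lower than higher. In vehicle 6 of the 42 were higher and 11 lower than with NS siRNA, at 11.8% higher and 9.95% lower over all genes tested by edgeR at FDR 0.01. In DHT 6 were higher and 12 lower, at 12.8% and 11.6% over all genes. The shares of the 42 were 14.3% higher and 26.2% lower in vehicle and 14.3% and 28.6% in DHT, so the share raised lay near that of all genes. Median log2 fold changes were -0.11 in vehicle and -0.15 in DHT, beside -0.0083 and -0.023 over all genes. ABHD2, PMEPA1 and STK39 were higher in both media, and ADAMTS1, HERC3, IQGAP2, KRT8, LIFR, LMAN1, SLC45A3, TPD52 and ZBTB10 were lower in both. Without NS-Veh replicate 1 the number lower in vehicle was 7, with HERC3, PGM3, SLC45A3 and SPCS3 lost. In every fit that left out 1 of the 16 libraries, ADAMTS1, KRT8, LIFR, LMAN1, TPD52 and ZBTB10 were lower in both media and ABHD2 and PMEPA1 were higher. With replicates 1 and 2 against 3 and 4 as a block, CAMKK2 and GNAI3 also passed as higher and ZMIZ1 as lower in vehicle, and HOMER2 did not pass.

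Other genes moved with the siRNA in the same libraries, and their part in these changes was not tested. The summed level of 13 proliferation markers was 410.3 to 720.1 CPM in NS-Veh, 827 to 1167 in NS-1nM DHT, 1780 to 1996 in SLIRP-Veh and 2315 to 2686 in SLIRP-1nM DHT. With SLIRP siRNA 13 of 13 were higher in vehicle and 12 of 13 in DHT, beside 11.8% and 12.8% of all genes tested. With DHT 6 of the 13 were higher with NS siRNA and 2 with SLIRP siRNA, beside 0.777% and 0.636% of all genes tested. The summed level of 10 interferon-stimulated genes was 833 to 1179 CPM in NS-Veh and 839 to 1224 in NS-1nM DHT, against 227 to 289 in SLIRP-Veh and 232 to 281 in SLIRP-1nM DHT. Of the 9 tested 9 were lower with SLIRP siRNA in both media, beside 9.95% of all genes in vehicle and 11.6% in DHT. MX1, not tested, was at 4.00 to 9.27 CPM in NS-Veh and 3.55 to 6.14 in SLIRP-Veh. In DHT it was at 2.61 to 6.94 CPM with NS siRNA and 3.88 to 6.52 with SLIRP siRNA.

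**Figure D3:**
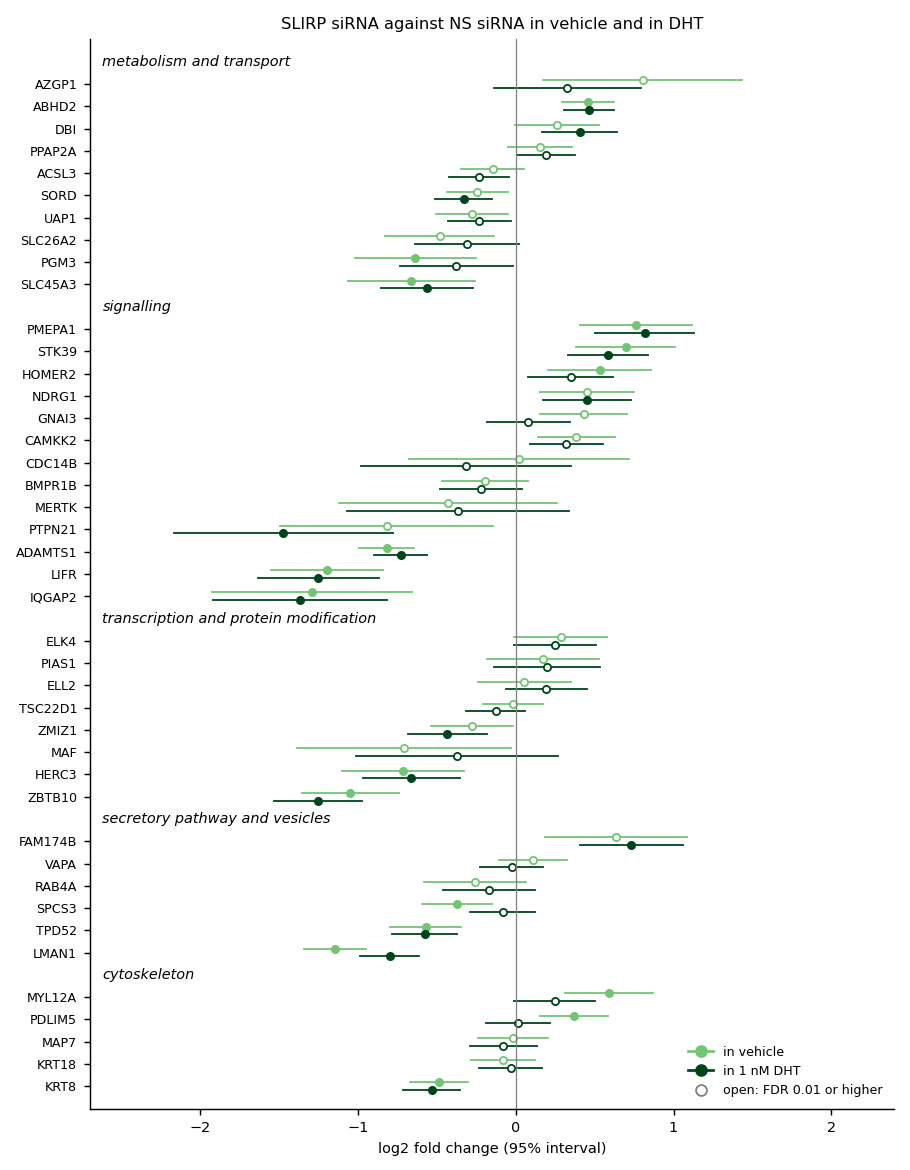
Log2 fold change of SLIRP siRNA against NS siRNA (x axis, with 95% intervals) for the 42 genes tested, grouped by role, in vehicle (light green) and in 1 nM DHT (dark green); filled points passed FDR 0.01. Filled points lie on both sides of 0, with 6 to the right and 11 to the left in vehicle and 6 and 12 in DHT.

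Signalling genes went both ways after SLIRP knockdown, with 3 of 13 higher and 3 lower in vehicle and 3 higher and 4 lower in DHT. In vehicle these were 23.1% and 23.1%, beside 11.8% higher and 9.95% lower over all genes tested. In DHT they were 23.1% and 30.8%, beside 12.8% and 11.6%. PMEPA1 (chr20:56223448-56286592) rose in both media. PMEPA1 was at 32.02, 44.04, 31.1 and 27.3 CPM in the 4 NS-Veh libraries (33.6 ± 7.25, mean ± SD) and at 39.8, 43.2, 38.3 and 33.6 CPM in NS-1nM DHT (38.7 ± 3.97). With SLIRP siRNA PMEPA1 stood at 50.9, 54.8, 56.5 and 55.2 CPM in vehicle (54.4 ± 2.41) and at 83.5, 76.2, 58.3 and 60.3 CPM in DHT (69.5 ± 12.2). Every SLIRP siRNA library was above every NS siRNA library, and the fold was 1.695 in vehicle (log2 0.76 ± 0.18; edgeR FDR 8.18e-04) and 1.76 in DHT (log2 0.82 ± 0.16; edgeR FDR 6.31e-05). STK39, at the levels given above, was higher by 0.70 ± 0.16 in vehicle (edgeR FDR 5.66e-04) and 0.58 ± 0.13 in DHT (edgeR FDR 3.22e-04). HOMER2 passed in vehicle, at 0.53 ± 0.16 (edgeR FDR 0.00942), and stood at 0.35 ± 0.13 in DHT (edgeR FDR 0.0398). The vehicle call was lost in 12 of the 16 fits that left out 1 library. It was also lost in 6 other refits, DESeq2 and upper-quartile scaling among them.

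NDRG1 had nearly the same difference in both media. NDRG1 was at 76.1, 81.1, 70.7 and 61.8 CPM in the 4 NS-Veh libraries (72.4 ± 8.25, mean ± SD) and at 80.7, 77.9, 61.8 and 67.3 CPM in NS-1nM DHT (71.9 ± 8.88). With SLIRP siRNA NDRG1 stood at 89.97, 100.20, 91.5 and 104 CPM in vehicle (96.5 ± 6.89) and at 108, 63.5, 100.02 and 113 CPM in DHT (96.3 ± 22.6). Vehicle libraries of the siRNAs did not overlap, while in DHT SLIRP siRNA replicate 2 lay within the NS range, and the log2 fold changes were 0.45 ± 0.15 (edgeR FDR 0.0156) and 0.45 ± 0.14 (edgeR FDR 0.00929). The call in DHT was lost in 5 of the 16 fits that left out 1 library. It was also lost in 5 other refits, DESeq2 and upper-quartile scaling among them. CAMKK2 was at 0.38 ± 0.12 and 0.32 ± 0.11 and GNAI3 at 0.43 ± 0.14 and 0.08 ± 0.13, below the threshold in both media.

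The signalling genes that fell included a receptor and a secreted protease. LIFR (chr5:38474770-38608456) fell in both media. LIFR was at 96.1, 64.9, 72.7 and 75.5 CPM in the 4 NS-Veh libraries (77.3 ± 13.3, mean ± SD) and at 65.01, 49.4, 61.8 and 53.4 CPM in NS-1nM DHT (57.4 ± 7.27). With SLIRP siRNA LIFR stood at 34.9, 36.01, 24.2 and 35.9 CPM in vehicle (32.8 ± 5.72) and at 15.7, 18.3, 33.02 and 24.9 CPM in DHT (22.98 ± 7.74). All SLIRP siRNA libraries were below all NS siRNA libraries, at log2 fold changes of -1.20 ± 0.18 (edgeR FDR 1.13e-06) and -1.25 ± 0.19 (edgeR FDR 1.97e-06), so NS siRNA cells had 2.29 and 2.38 times the level. ADAMTS1 (chr21:28208074-28217728), a secreted metalloproteinase that cleaves proteoglycans, had more counts and a smaller SE of the log2 fold change. ADAMTS1 was at 1021, 920.2, 873 and 839 CPM in the 4 NS-Veh libraries (913 ± 78.9, mean ± SD) and at 913, 947, 839.6 and 794 CPM in NS-1nM DHT (873 ± 69.4). With SLIRP siRNA ADAMTS1 stood at 520.3, 582, 502 and 462 CPM in vehicle (517 ± 50.2) and at 543, 602, 499 and 472 CPM in DHT (529 ± 56.8). Again no library of one siRNA reached the range of the other, and the log2 fold changes were -0.82 ± 0.08 (edgeR FDR 1.04e-09) and -0.73 ± 0.08 (edgeR FDR 7.54e-09). IQGAP2 was low, 16.1 counts a library, and stood at -1.29 ± 0.31 (edgeR FDR 0.00137) and -1.37 ± 0.27 (edgeR FDR 1.19e-04). PTPN21, at 13.1 counts a library, passed in DHT at -1.47 ± 0.34 (edgeR FDR 8.00e-04) and not in vehicle at -0.82 ± 0.33 (edgeR FDR 0.0570).

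In the group of transcription and protein modification 2 of 8 fell in vehicle and 3 in DHT. The shares were 25% and 37.5%, beside 9.95% and 11.6% of all genes tested. ZBTB10 (chr8:81397854-81438500), a zinc finger repressor, fell most. ZBTB10 stood at 126, 90.4, 89.9 and 81.1 CPM in the 4 NS-Veh libraries (96.9 ± 19.9, mean ± SD) and at 129, 133, 126 and 118 CPM in NS-1nM DHT (126 ± 6.35). With SLIRP siRNA ZBTB10 stood at 53.3, 34.4, 37.7 and 46.5 CPM in vehicle (42.96 ± 8.54) and at 52.2, 64.9, 49.5 and 48.3 CPM in DHT (53.7 ± 7.62). The siRNAs were apart in both media, and the log2 fold changes were -1.05 ± 0.15 (edgeR FDR 9.33e-07) and -1.25 ± 0.14 (edgeR FDR 3.64e-09). HERC3 fell by a log2 value of 0.72 in vehicle (SE 0.19; edgeR FDR 0.00341), where its libraries did not overlap, and by 0.66 in DHT (SE 0.15; edgeR FDR 7.13e-04), where they did and where DESeq2 made no call. ZMIZ1, a coactivator related to PIAS1, was at -0.28 ± 0.13 in vehicle (edgeR FDR 0.0997) and passed in DHT at -0.43 ± 0.12 (edgeR FDR 0.00539). This call was lost in 5 of the 16 fits that left out 1 library and in 4 other refits, DESeq2 among them. PIAS1 and TSC22D1 had values between -0.13 and 0.20, and ELL2 and ELK4 between 0.05 and 0.28. MAF, at 11.8 counts a library, was at -0.71 ± 0.34 and -0.37 ± 0.32.

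Of the secretory genes 3 of 6 fell in vehicle, while in DHT 2 of 6 fell and FAM174B rose. The shares that fell were 50% and 33.3%, beside 9.95% and 11.6% of all genes tested. In DHT 16.7% of the 6 rose, beside 12.8% of all genes. LMAN1 had the lowest FDR of all 42 genes in vehicle, at a log2 fold change of -1.15 ± 0.10 (edgeR FDR 8.55e-12), and was at -0.80 ± 0.09 in DHT (edgeR FDR 7.23e-09). Its level with NS siRNA was 2.21 times that with SLIRP siRNA in vehicle and 1.74 times in DHT. TPD52 was at -0.57 ± 0.11 (edgeR FDR 1.05e-04) and -0.58 ± 0.10 (edgeR FDR 2.30e-05). SPCS3 fell in vehicle, -0.37 ± 0.11 (edgeR FDR 0.00744), and was at -0.08 ± 0.10 in DHT (edgeR FDR 0.566). Its vehicle call was lost in 5 of the 16 fits that left out 1 library and in replicates 3 and 4 alone. FAM174B, whose siRNA groups did not overlap in either medium, was at 0.63 ± 0.22 in vehicle (edgeR FDR 0.0254) and 0.73 ± 0.16 in DHT (edgeR FDR 3.97e-04). RAB4A and VAPA stayed between -0.26 and 0.11 and did not pass.

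In metabolism and transport 1 of 10 rose and 2 fell in vehicle, and 2 rose and 2 fell in DHT. Over all genes tested 11.8% rose and 9.95% fell in vehicle, against 10% and 20% here. In DHT 12.8% and 11.6% of all genes did so, against 20% and 20% here. ABHD2 rose by 1.37-fold in vehicle (log2 0.46 ± 0.08; edgeR FDR 2.68e-05) and 1.38-fold in DHT (log2 0.46 ± 0.08; edgeR FDR 1.04e-05), and DBI passed in DHT at 0.40 ± 0.12 (edgeR FDR 0.00646) beside 0.26 ± 0.13 in vehicle (edgeR FDR 0.125). SLC45A3 fell in both, -0.66 ± 0.20 (edgeR FDR 0.00942) and -0.56 ± 0.14 (edgeR FDR 0.00202), with no overlap of the siRNAs in either medium; DESeq2 made neither of these calls. SORD passed in DHT at -0.33 ± 0.09 (edgeR FDR 0.00333) and was at -0.24 ± 0.10 in vehicle (edgeR FDR 0.0482). PGM3 passed in vehicle at -0.64 ± 0.19 (edgeR FDR 0.00837) and was at -0.38 ± 0.18 in DHT (edgeR FDR 0.0959); the vehicle call was lost in DESeq2 and in limma on the authors' normalized score. In the 16 fits that left out 1 library, the vehicle call of PGM3 was lost in 4, that of SLC45A3 in 8, and the DHT calls of SLC45A3, DBI and SORD in 3, 4 and 4. UAP1, ACSL3, SLC26A2, PPAP2A and AZGP1 passed in neither medium, UAP1 at -0.28 ± 0.11 and -0.23 ± 0.10 and PPAP2A at 0.15 ± 0.10 and 0.19 ± 0.09.

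Of the cytoskeleton genes KRT8 fell in both media and its partner KRT18 did not pass. KRT8 was 363 ± 16.01, 333 ± 38.9, 258 ± 11.8 and 231 ± 20.7 CPM in the vehicle and DHT groups of NS siRNA and then of SLIRP siRNA, and its knockdown log2 fold changes were -0.49 ± 0.09 (edgeR FDR 4.93e-05) and -0.53 ± 0.09 (edgeR FDR 1.00e-05), whereas KRT18 was at -0.08 ± 0.10 and -0.03 ± 0.10. Reads of both keratins are uncertain, since the hg19 annotation holds 54 named pseudogenes of KRT8 and 67 of KRT18 and their exons share 525 bases on opposite strands. MYL12A (chr18:3247479-3256234) passed in vehicle. MYL12A was at 92.1, 99.7, 86.5 and 80.3 CPM in the 4 NS-Veh libraries (89.6 ± 8.23, mean ± SD) and at 123, 109.5, 84.5 and 113 CPM in NS-1nM DHT (107 ± 16.2). With SLIRP siRNA MYL12A stood at 117, 185, 116 and 124 CPM in vehicle (136 ± 33.03) and at 117, 133, 123 and 134 CPM in DHT (127 ± 7.97). The vehicle libraries of the siRNAs were apart, the log2 fold change was 0.59 ± 0.14 (edgeR FDR 8.47e-04), and in DHT it was 0.25 ± 0.13 (edgeR FDR 0.130). PDLIM5 (chr4:95373008-95589378) also passed in vehicle. PDLIM5 was at 178, 151, 150.0 and 144 CPM in the 4 NS-Veh libraries (155.6 ± 15.3, mean ± SD) and at 159, 169.7, 196 and 177 CPM in NS-1nM DHT (175 ± 15.4). With SLIRP siRNA PDLIM5 stood at 193, 200.4, 179 and 217 CPM in vehicle (197 ± 16.01) and at 156.5, 159, 198 and 189.8 CPM in DHT (176 ± 21.1). Its siRNA groups were apart in vehicle, at 0.37 ± 0.11 (edgeR FDR 0.00614), and overlapped in DHT, at 0.02 ± 0.10 (edgeR FDR 0.915). The vehicle call of PDLIM5 was lost in 6 of the 16 fits that left out 1 library. It was also lost in limma on the authors' normalized score and in replicates 1 and 2 alone. MAP7 was at -0.02 ± 0.11 and -0.08 ± 0.11.

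Whether the response to DHT differed between the siRNAs was tested as the interaction, the log2 response with SLIRP siRNA minus that with NS siRNA. None of the 42 genes passed the edgeR test at FDR 0.01 (0.0% of all genes tested passed), 2 were at an unadjusted p under 0.05 beside 388 of all genes, and DESeq2 called 0 with 2 at that p. The lowest edgeR p belonged to LMAN1 (0.35 ± 0.13, 95% interval 0.08 to 0.62), PDLIM5 (-0.35 ± 0.15, -0.65 to -0.06) and SPCS3 (0.29 ± 0.15, -0.01 to 0.59), each with an edgeR FDR of 1.00. The intervals had half-widths of 0.228 to 1.00 (median 0.385), and 37 of the 42 lay within 1 log2 unit of 0 on both sides. That bound is wide beside the median DHT response of 0.21 with NS siRNA, so it does not show that the responses were alike. For SLC45A3 the difference was 0.10 ± 0.24 (-0.40 to 0.59), for HERC3 0.05 ± 0.24 (-0.44 to 0.55), for FAM174B 0.10 ± 0.28 (-0.47 to 0.67) and for ABHD2 0.01 ± 0.11 (-0.22 to 0.23). These are intervals for single genes, whereas a call needed an FDR of 0.01 over all 10684 genes tested. The intervals of LMAN1 and PDLIM5 did not include 0, and neither gene passed. What size of difference would pass with 4 libraries a group was not tested.

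The 10 genes raised by DHT with NS siRNA did not share 1 direction of the knockdown before DHT was added. In vehicle ABHD2, STK39 and HOMER2 were higher with SLIRP siRNA, SLC45A3 and HERC3 lower, and the other 5 did not pass. In the 16 fits that left out 1 library, these 5 calls were lost in 0, 1, 12, 8 and 4, in that order. For SLC45A3 the mean went from 51.7 to 117 CPM with NS siRNA and from 32.8 to 77.4 CPM with SLIRP siRNA, so that the DHT level after knockdown was above the vehicle level and below the DHT level of the NS siRNA cells. For ABHD2 the vehicle level after knockdown, 1098 ± 103 CPM, was close to the DHT level with NS siRNA, 1055 ± 119 CPM. Across the 42 genes the log2 fold changes of DHT with the 2 siRNAs had a Pearson correlation of 0.854 and a Spearman correlation of 0.786, and those of the knockdown in the 2 media 0.932 and 0.955. These comparisons share no libraries in a pair, though all 16 share 1 spread estimate, and genes are not independent replicates. Over all genes tested the values were 0.411 and 0.423 for DHT and 0.830 and 0.808 for the knockdown.

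**Figure D4:**
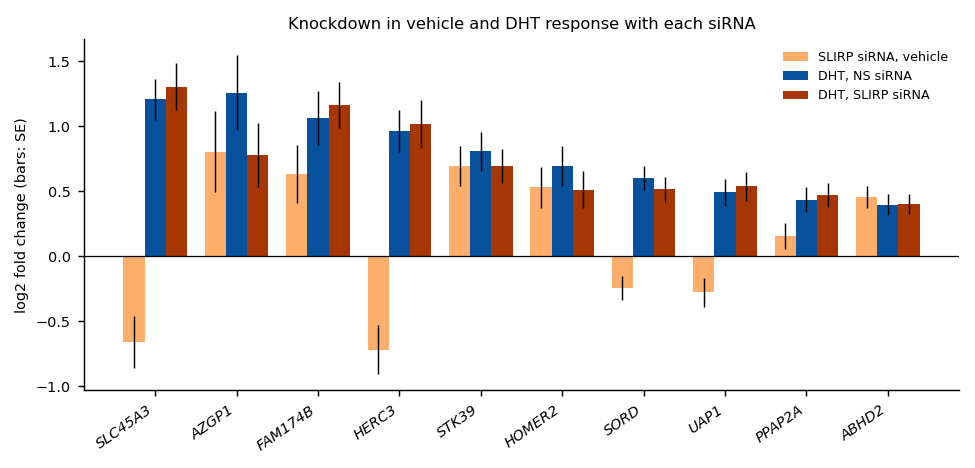
Log2 fold change (y axis, bars with SE) of the 10 genes raised by DHT with NS siRNA, for SLIRP siRNA against NS siRNA in vehicle (light orange) and for DHT against vehicle with NS siRNA (blue) and with SLIRP siRNA (brown). All blue and brown bars are above 0, while the light orange bars are below 0 for SLC45A3, HERC3, SORD and UAP1 and above 0 for the other 6; the NS-Veh libraries enter both the light orange and the blue bars, so these are not independent.

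As a score, the mean over the 42 genes of the log2 CPM centred on each gene's mean over all libraries, the genes stood with NS siRNA at -0.058 ± 0.050 in vehicle and 0.22 ± 0.11 in DHT, and with SLIRP siRNA at -0.21 ± 0.021 in vehicle and 0.048 ± 0.033 in DHT (SD, n = 4). The NS-1nM DHT libraries were the most spread, from 0.11 to 0.35. No test was made of the score.

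Some of the counts are uncertain because other genes can share their reads. Exons of CDC14B, ELK4, IQGAP2, PGM3, PIAS1, PPAP2A, PTPN21 and SLC26A2 overlap exons of a coding gene on the opposite strand, by 87 bases in IQGAP2 to 6195 in PIAS1, and the strand setting of the counting is not given in the sources used here. TPD52 shares 877 exonic bases with a readthrough gene of its own strand. Besides SORD and the keratins, ELL2 has 4 named pseudogenes, AZGP1, DBI and HOMER2 have 2 each, and ACSL3, MAF and MYL12A have 1 each.

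Transcription factors and cofactors of luminal cells were measured in the same libraries. Of 10 such genes edgeR called 0 for DHT with either siRNA, with 2 at an unadjusted p under 0.05 with NS siRNA and 5 with SLIRP siRNA. SLIRP siRNA lowered 3 of the 10 in vehicle (FOXA1, HOXB13 and NCOA2) and 4 in DHT, with GATA2 added. The shares lowered were 30% and 40%, beside 9.95% and 11.6% of all genes tested. FOXA1 ran from 618 to 783 and 623 to 685 CPM with NS siRNA and from 537 to 620.0 and 471 to 531 CPM with SLIRP siRNA. Of 34 other androgen-response genes tested, kallikreins and lipid enzymes among them, DHT raised 8 with each siRNA (23.5%). Over all genes it raised 0.777% with NS siRNA and 0.636% with SLIRP siRNA. SLIRP siRNA raised 9 of the 34 and lowered 6 in vehicle (26.5% and 17.6%), beside 11.8% and 9.95% over all genes. In DHT it raised 14 and lowered 9 (41.2% and 26.5%), beside 12.8% and 11.6%. The edgeR interaction called 0 genes of either list, with 0 of the 10 and 5 of the 34 at an unadjusted p under 0.05.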

How the data were processed

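16 libraries of LNCaP cells, 4 in each of 4 groups, were measured by single-read RNA sequencing with reads of 50 bases. Alignment by the authors was to hg19, and their deposited table holds estimated counts as whole numbers in 20531 entries. The submitters' processing notes name CASAVA and RSEM, and versions, annotation and strand setting are not given in the sources used here. The authors also deposited a normalized score for 13148 genes, the estimated count over the upper quartile of the library's detected genes, scaled by 1000 and rounded. Splitting reads between near-identical genes by estimation can move counts among them.

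The 45 genes and the other lists were chosen with earlier results of these data known. Some genes of the marker and cofactor lists are not reported here and were left out of their sums and counts. The 4-group model was fitted to the estimated counts of all 16 libraries in edgeR 4.0.16 (R 4.3.3) with TMM scaling, filterByExpr, glmQLFit and glmQLFTest, and p-values were adjusted by Benjamini-Hochberg over the 10684 genes tested, at FDR 0.01. Contrasts were DHT against vehicle with each siRNA, SLIRP against NS siRNA in each medium, and the interaction. The quasi-likelihood test, which is made for counts, took the place of the authors' SAM. The fits were checked on simulated counts. The 29 entries with no symbol carry gene identifiers and were kept. Totals of 436353 to 1689708 counts set a floor of 3 counts at 1.78 to 6.88 CPM, which covers counting error only. Replicates of a group differed by 1.21 to 2.26 times the sampling noise (chi-square per degree of freedom). With NS siRNA this was 1.21 to 1.37 within replicates 1 and 2 or 3 and 4 and 1.44 to 1.86 across them. With SLIRP siRNA it was 1.21 to 1.88 and 1.50 to 2.26. These values cannot tell whether 2 replicates came from separate cultures.

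Values in every library are given for genes past FDR 0.01 with NS siRNA (at most 10, by log2 fold change), for the 3 with the lowest interaction p, and for the 5 largest rises and falls after knockdown in each medium, all with a mean of at least 30 counts. Alternatives were DESeq2 1.42.0, upper-quartile and RLE scaling, no filter, at least 10 counts in every library, the replicate number as a block, replicates 1 and 2 against 3 and 4 as a block (added after the data were seen), limma 3.58.1 on log2(score + 1), the compared groups alone, replicates 1 and 2 or 3 and 4 alone, each library left out, FDR 0.05, and a fold of 1.5. Gene positions are those of GENCODE v44lift37 on hg19. The methods describe 2 biological replicates from each of 2 experiments without tying them to the numbers, so p-values measure the spread between these samples.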

Additional observations from a re-analysis of the deposited data

Results flagged for a closer look

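In 3 of the 72 groups of 4 libraries looked at for the named genes, 1 library stood far from the other 3, with a gap that took most of the group's range. UAP1 was highest in SLIRP-1nM DHT replicate 3, at 190.3 CPM against 155 to 159 CPM in the other 3 libraries. MYL12A was highest in SLIRP-Veh replicate 2, at 185 CPM against 116 to 124 CPM. LIFR was lowest in SLIRP-Veh replicate 3, at 24.2 CPM against 34.9 to 36.0 CPM. Chance flags about 1 in 20 groups, and no library was flagged for more than 1 gene.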

How the results depend on the processing

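The 55 log2 fold changes called among the 42 genes kept their sign in each of the 27 refits that gave them a value. Of the 32 values by which genes were chosen for full description, refitted under 11 alternatives, 315 refitted values kept their side of the threshold and 34 no longer passed it, and with each library left out in turn these were 465 and 47; the other comparisons of these genes are not in these counts. The count of genes raised by DHT, 10 with each siRNA, was 6 and 4 with limma on the normalized score, 5 with NS siRNA in replicates 1 and 2 alone, and 3 and 5 in replicates 3 and 4 alone, where fewer libraries were fitted. A fold of at least 1.5 left 5 with SLIRP siRNA. With single libraries left out the counts were 4 to 10 with NS siRNA and 6 to 10 with SLIRP siRNA.

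The 6 genes higher after knockdown in vehicle were 1 in replicates 1 and 2 alone, 3 with a fold of at least 1.5 and 11 at FDR 0.05. The 6 in DHT were 2 with limma on the score, 3 in replicates 1 and 2 alone and 2 with a fold of at least 1.5. The 12 lower in DHT were 7 with a fold of at least 1.5. With single libraries left out, 4 to 7 were higher and 7 to 11 lower in vehicle, and 4 to 6 were higher and 9 to 12 lower in DHT. DESeq2 gave 9 and 9 for DHT, 5 and 9 for vehicle and 5 and 9 for DHT after knockdown; it gave no adjusted p for AZGP1 with NS siRNA and FAM174B with SLIRP siRNA. The interaction called 0 of the genes under every alternative in which it could be fitted; over all genes it called 11 without a filter, 1 in replicates 1 and 2, 3 in replicates 3 and 4 and 1 without NS-1nM DHT replicate 2. For the knockdown in DHT the median of all genes was -0.11 with limma on the score, beside -0.023 in the main fit. The median of the set was then -0.18, beside -0.15.

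The replicate number as a block gave 12 and 10 genes raised by DHT and, after knockdown, 8 higher and 12 lower in vehicle and 6 and 12 in DHT, with DBI and TPD52 (DHT, NS siRNA) and CAMKK2, GNAI3 and ZMIZ1 (vehicle) gained. Over 6965 genes the deviations of same-numbered libraries correlated by -0.037 to 0.20, 7 of 24 pairs over 0.1, and 10 of 24 libraries' comparisons were highest with their own number, so the numbers were not taken to pair the samples one by one. Replicates 1 and 2 did stand apart from 3 and 4: between the NS groups the deviations correlated by 0.050 to 0.20 within these pairs and by -0.21 to -0.060 across them, and between the SLIRP groups by -0.015 to 0.18 and -0.26 to 0.039. This split as a block, an alternative chosen after seeing the data, gave 12 and 11 genes raised by DHT, 7 higher and 12 lower in vehicle, 6 and 12 in DHT, and an interaction for 0. In the 250 bases before the start the half-site was in 1 of the 35 promoters, STK39. Low counts limit AZGP1, CDC14B, IQGAP2, MAF, MERTK and PTPN21, all under 30 counts a library on average.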
